A study of Mus musculus with 6 samples.

Results

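The enzymes that make phosphatidylcholine and phosphatidylethanolamine, the most abundant phospholipids of liver membranes, were followed in the livers of mice that had developed steatohepatitis. The set held 10 genes, chosen by name for their known roles: the choline kinases Chka and Chkb, the cytidylyl transferases Pcyt1a and Pcyt2, the terminal transferases Chpt1 and Cept1, the ethanolamine kinases Etnk1 and Etnk2, the methyltransferase Pemt and the lysophospholipid acyltransferase Lpcat3. All 10 were among the 24346 gene symbols of the deposited table, and all 10 were among the 11493 that averaged 0.5 FPKM or more (fragments scaled to transcript length and to the number of mapped fragments) and entered the tests. RNA sequencing of poly(A) RNA gave 6 livers, 3 labelled control and 3 labelled lipophagy.

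All mice were male C57BL/6J (C57BL/6 in the sample labels) and were 8 weeks old when they were placed for 6 weeks on CDAHFD, a high-fat diet that lacks choline and gives protein as free amino acids. They then received a single intravenous injection of adeno-associated virus of serotype 8 with the thyroxine-binding globulin promoter, which is active in hepatocytes, and returned to normal chow, so that the livers were collected 2 weeks after the choline-deficient feeding had ended. In the lipophagy group the virus carried mCherry-LDTS-eLIR, an adapter that joins a lipid droplet-targeting sequence (LDTS) of perilipin 1 to an engineered LC3 interacting region (eLIR) of optineurin. In the control group it carried mCherry-LDTS-LIR mut, in which that region is mutated. Both groups therefore carried the LDTS, which by itself favours lipid storage, and the adapter was delivered to hepatocytes while whole liver was sequenced.

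Phosphatidylcholine is made from choline through the CDP-choline branch of the Kennedy pathway, in which a kinase, a cytidylyl transferase and a transferase act in turn. A parallel branch converts ethanolamine to phosphatidylethanolamine. Hepatocytes have in addition a route around dietary choline, in which PEMT methylates phosphatidylethanolamine to phosphatidylcholine. The liver needs phosphatidylcholine to coat very low-density lipoprotein and to secrete into bile, and a lack of choline is known to make the liver store fat.

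Among the 10 genes, the largest difference lay in the ethanolamine branch. Etnk2 was higher in each of the 3 lipophagy livers than in any control liver, with a mean 48.2% above that of the controls. Cept1 and Chpt1, the transferases of the last step, were higher in all 3 lipophagy livers by smaller margins of 18.7% and 19.1%. Chkb had a mean 0.884 times that of the controls with no overlap between the groups, and the other 6 genes overlapped between the groups.

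No gene of the set passed an adjusted p under 0.05 (limma on log2(FPKM + 1), Benjamini-Hochberg over all 11493 genes), a threshold that 0.0261% of the tested genes passed. At an unadjusted p under 0.05, 3 of the 10 were higher in lipophagy livers (Etnk2, Cept1 and Chpt1), against 11.5% of all tested genes, and 0 were lower, against 7.97% of all tested genes. The values of the groups did not overlap for 3 of the 10 in the higher direction, against 15.4% of all tested genes, and for 1 of the 10 in the lower direction, against 10.8%. The median log2 change of the set was 0.048, beside 0.020 over all tested genes. Leaving out lipophagy liver 2 gave a median of 0.086, and leaving out lipophagy liver 3 gave 0.031. The labels number the livers without tying each to a separate mouse, so these p-values measure the spread between these 6 samples.

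The FPKM totals of the libraries differed between the groups. They ran from 622696 to 681138 in the controls and from 709993 to 782392 in the lipophagy livers. The 10 genes together had 798 to 850 FPKM in the controls and 869 to 1031 in the lipophagy livers, which did not overlap. As a share of each library's total they held 0.128%, 0.129% and 0.119% in the controls and 0.132%, 0.118% and 0.126% in the lipophagy livers, and these shares overlapped. Quantile normalization, which gives every liver the same distribution of values, moved the median log2 change of the set to -0.050, and its value is given with the genes whose direction or call it altered. Scaling each liver to the same median gave a set median of 0.050. With that scaling Etnk2, Cept1 and Chpt1 still had an unadjusted p under 0.05 (limma), beside 11.5% of all tested genes in the higher direction.

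**Figure D1:**
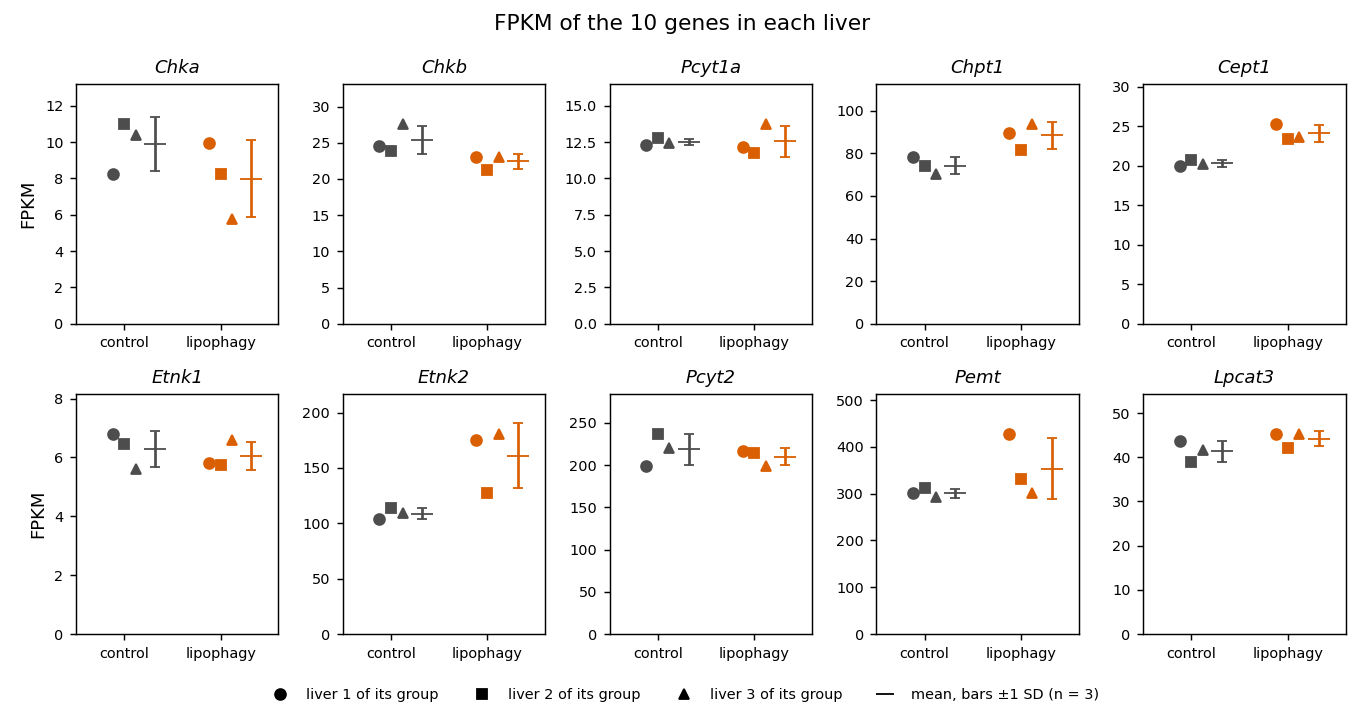
FPKM of the 10 genes (y axes, linear, from 0) in the 3 control livers (grey) and the 3 lipophagy livers (orange), with the mean and bars of 1 SD beside the points. Etnk2, Cept1 and Chpt1 had all 3 lipophagy livers above all 3 control livers and Chkb had all 3 below, while the other 6 genes overlapped.

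The marker genes of liver cell types were taken as 7 lists, and none of the markers passed an adjusted p under 0.05 (limma). Over all tested genes, 6259 had a higher mean in lipophagy livers and 5234 a lower one. Of 14 hepatocyte markers, 13 had a higher mean in lipophagy livers and 6 had an unadjusted p under 0.05 (limma), beside 11.5% of all tested genes, or 2 after quantile normalization, and their summed level was 75004 to 82742 FPKM in the controls and 89329 to 117381 FPKM in the lipophagy livers, with no overlap. Of 12 stellate cell markers, 11 were lower on average. At an unadjusted p under 0.05 (limma), 8 were lower, beside 7.97% of all tested genes, or 7 after quantile normalization. The stellate markers summed to 195 to 202 FPKM in the controls and 151 to 179 FPKM in the lipophagy livers. Most of that sum is Dcn, whose groups overlapped (log2 change -0.14). The groups of Des (-0.050), Reln (-0.11) and Lrat (0.25) also overlapped. The markers of macrophages, most of whose sum is Lyz2, summed to 577 to 776 FPKM against 568 to 707 FPKM. Of 11 tested, 7 had a lower mean. At an unadjusted p under 0.05 (limma), 1 was higher (Vsig4) and 2 lower (Cd68 and Csf1r), beside 11.5% and 7.97% of all tested genes. The macrophage median log2 change was -0.15, or -0.34 after quantile normalization, when 1 was higher and 4 lower at that threshold. The markers of bile duct cells, most of whose sum is Spp1, summed to 142 to 252 FPKM against 96.1 to 201 FPKM. All 6 tested bile duct markers had a lower mean and 0 had an unadjusted p under 0.05 (limma), with a median log2 change of -0.50. After quantile normalization the bile duct median was -0.42, and 1 marker was under that threshold (Spp1, log2 change -0.88, limma, unadjusted p = 0.0221), beside 7.82% of all tested genes. Quantile normalization took the median of the hepatocyte markers from 0.26 to 0.0096 and that of the stellate cell markers from -0.35 to -0.29. Several hepatocyte markers are among the highest genes, whose values that normalization makes nearly equal in every liver. Alb, the highest, went from a log2 change of 0.47 to 2.4e-16. The 2 medians after it can therefore not be compared with each other. Sums overlapped between the groups for endothelial markers (45.9 to 56.6 against 50.4 to 74.7 FPKM). They did not for markers of lymphocytes (5.0 to 6.24 against 3.93 to 4.71 FPKM) or neutrophils (18.9 to 32.2 against 16.2 to 18.8 FPKM). Only 3 of the 9 lymphocyte markers reached the minimum level and were tested, and the groups overlapped for each of the 9. At an unadjusted p under 0.05 (limma), 1 tested lymphocyte marker and 2 of 3 tested neutrophil markers were lower, beside 7.97% of all tested genes. After quantile normalization these counts were 0 and 1. No marker of these 7 lists found in the table was at 0 in all livers, and the part of cell composition in the results for the 10 genes was not tested. In whole liver, fewer cells of a type and less RNA per cell cannot be told apart.

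In the control livers the levels per length spanned from Pemt at 301 ± 9.68 FPKM (SD, n = 3) down to Etnk1 at 6.28 ± 0.614 FPKM. The order was Pemt, Pcyt2, Etnk2, Chpt1, Lpcat3, Chkb, Cept1, Pcyt1a, Chka and Etnk1, and no pair of neighbours in this order overlapped among the 3 controls. In the lipophagy livers the order was the same except that Cept1 (24.1 ± 1.08 FPKM) stood above Chkb (22.4 ± 1.06 FPKM), and the neighbours Chka and Etnk1 overlapped.

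The ethanolamine branch begins with the ethanolamine kinases, which make phosphoethanolamine. Etnk2 (chr1:133363572-133380336, GRCm38, plus strand), a kinase abundant in liver, had 104, 113 and 109 FPKM in the controls and 175, 127 and 181 FPKM in the lipophagy livers. The lowest lipophagy liver stood above the highest control, and lipophagy livers 1 and 3 stood well above lipophagy liver 2. The mean went from 109 ± 4.88 to 161 ± 29.4 FPKM (SD, n = 3 each), a log2 change of 0.55 with a standard error of 0.14 and a 95% interval of 0.23 to 0.86 (limma, unadjusted p = 0.0037, adjusted p = 0.135). Etnk2 ranked 314 by p among the tested genes. Leaving out each liver in turn kept the log2 change between 0.46 and 0.71, with an unadjusted p under 0.05 (limma) in 6 of 6 fits. After quantile normalization the change was 0.39 (limma, unadjusted p = 0.0194, adjusted p = 0.261).

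Etnk1 (chr6:143167221-143232307, plus strand), the broadly expressed ethanolamine kinase, was at a much lower level. It had 6.79, 6.45 and 5.60 FPKM in the controls and 5.81, 5.74 and 6.60 FPKM in the lipophagy livers. The groups overlapped throughout, with a log2 change of -0.045 and a 95% interval of -0.26 to 0.17 (limma, adjusted p = 0.814). The ratio of Etnk2 to Etnk1 in each liver was 15.3, 17.6 and 19.5 in the controls and 30.2, 22.2 and 27.4 in the lipophagy livers. Every lipophagy liver had a higher ratio than every control. Tested as Etnk1 over Etnk2, the log2 difference was -0.60 with a pooled SD of 0.20. The exact permutation test gave p = 0.1, which is the smallest that 3 against 3 livers allow, and 0.5 after adjustment over the 5 ratios tested.

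Pcyt2 (chr11:120610087-120617936, minus strand), the cytidylyl transferase that makes CDP-ethanolamine and sets the pace of this branch, had 200, 237 and 220 FPKM in the controls and 217, 215 and 199 FPKM in the lipophagy livers. The groups overlapped, and the log2 change was -0.055 with a 95% interval of -0.27 to 0.16 (limma, adjusted p = 0.760). After quantile normalization it was -0.24 (limma, unadjusted p = 0.0096, adjusted p = 0.211). The ratio of Pcyt2 to Pcyt1a ranged from 16.2 to 18.5 in the controls and from 14.4 to 18.3 in the lipophagy livers, with no difference beyond the spread (exact permutation p = 0.7).

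Cept1 (chr3:106502260-106547802, minus strand) encodes a transferase that can complete both branches by joining CDP-choline or CDP-ethanolamine to diacylglycerol. Its values were 20.0, 20.8 and 20.2 FPKM in the controls and 25.3, 23.3 and 23.6 FPKM in the lipophagy livers. The control livers lay within 1 FPKM of each other and below every lipophagy liver. The log2 change was 0.24 with a standard error of 0.073 (95% interval 0.068 to 0.40, limma, unadjusted p = 0.0118, adjusted p = 0.175), and the unadjusted p stayed under 0.05 in 6 of 6 fits that left out a liver. After quantile normalization the change was 0.13 (limma, unadjusted p = 0.0746), which no longer passed. Part of Cept1 lies opposite Dram2 and Dennd2d on the other strand, and whether the strand was used in counting is not given in the sources used here.

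Chpt1 (chr10:88452745-88504073, minus strand), the transferase specific to CDP-choline, had 78.4, 74.1 and 70.2 FPKM in the controls and 89.6, 81.7 and 94.0 FPKM in the lipophagy livers. All 3 lipophagy livers were above the highest control, control liver 1, by a narrow margin for lipophagy liver 2. The mean went from 74.3 ± 4.11 to 88.4 ± 6.22 FPKM, a log2 change of 0.25 with a standard error of 0.086 (95% interval 0.049 to 0.45, limma, unadjusted p = 0.0206, adjusted p = 0.202). The unadjusted p rose above 0.05 without control liver 2, without control liver 3 or without lipophagy liver 3, to at most 0.0822 (limma), and after quantile normalization the change was 0.097 (unadjusted p = 0.327). Chpt1 overlaps Sycp3 on the opposite strand.

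The ratio of Chpt1 to Cept1 was close to level between the groups. It was 3.93, 3.57 and 3.48 in the controls and 3.54, 3.50 and 3.98 in the lipophagy livers. The difference of 0.0045 on the log2 scale lay within a pooled SD of 0.098 (exact permutation p = 0.9).

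**Figure D2:**
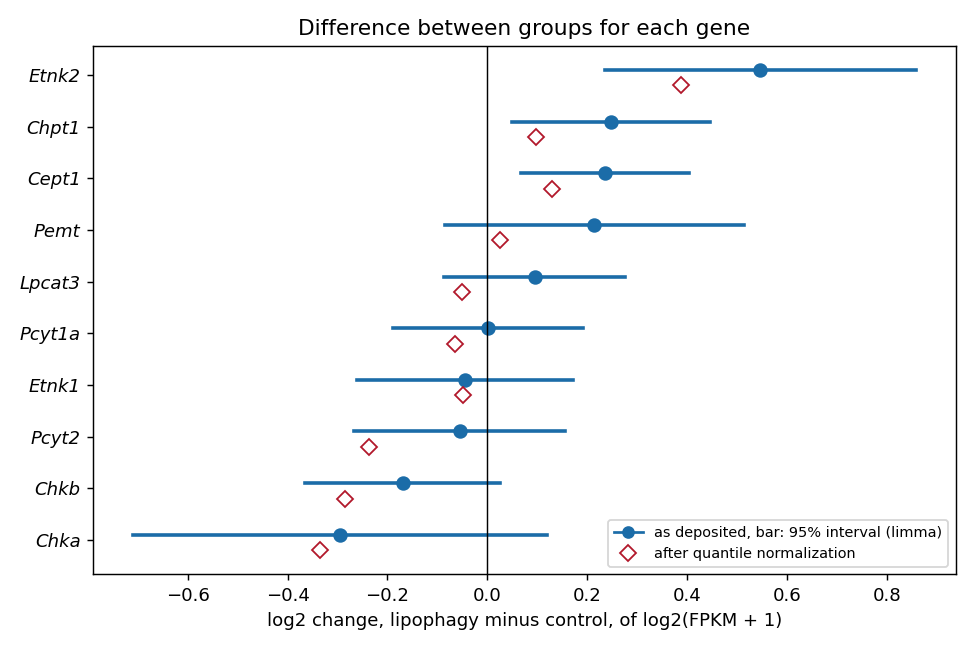
Log2 change between lipophagy and control livers (x axis, difference of group means of log2(FPKM + 1)) for each of the 10 genes, with 95% intervals from limma as bars, and the change after quantile normalization as open diamonds. Etnk2, at 0.55, is farthest from 0, the intervals of Etnk2, Cept1 and Chpt1 stay above 0, and the diamonds lie to the left of the points for all 10 genes.

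Sequences upstream of 4 of the genes are shown, namely Etnk2, Cept1 and Chpt1, which were higher in lipophagy livers, and Pcyt1a, which overlapped between groups and alone held a sterol regulatory element-like match. They come from RefSeq (GRCm38.p6) and read 5′ to 3′ on the strand of each gene, in the 250 bases before its most upstream start, without bases annotated as exon of any gene. The windows printed are chr1:133363322-133363571 (plus strand) for Etnk2, chr3:106547921-106548052 (minus strand) for Cept1, chr10:88504074-88504220 (minus strand) for Chpt1 and chr16:32430671-32430920 (plus strand) for Pcyt1a. Capitals mark matches, on either strand, to GGGCGG (the GC box), CCAAT or TCACNCCAC (sterol regulatory element-like).
Etnk2: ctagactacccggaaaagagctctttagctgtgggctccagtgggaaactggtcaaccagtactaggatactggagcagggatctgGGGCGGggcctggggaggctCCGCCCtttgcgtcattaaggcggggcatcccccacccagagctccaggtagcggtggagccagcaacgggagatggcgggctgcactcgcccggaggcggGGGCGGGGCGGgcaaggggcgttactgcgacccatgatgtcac
Cept1: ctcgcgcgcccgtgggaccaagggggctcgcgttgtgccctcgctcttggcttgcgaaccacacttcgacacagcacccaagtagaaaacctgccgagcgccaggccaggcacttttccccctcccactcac
Chpt1: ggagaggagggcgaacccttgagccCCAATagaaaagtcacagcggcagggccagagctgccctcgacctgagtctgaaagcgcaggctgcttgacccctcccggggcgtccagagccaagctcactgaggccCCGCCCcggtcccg
Pcyt1a: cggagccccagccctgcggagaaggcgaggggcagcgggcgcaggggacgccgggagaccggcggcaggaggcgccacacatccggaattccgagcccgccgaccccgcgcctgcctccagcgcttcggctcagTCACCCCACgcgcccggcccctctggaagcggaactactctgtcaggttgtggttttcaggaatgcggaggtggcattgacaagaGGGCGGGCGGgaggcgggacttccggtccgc

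The window of Etnk2 had 4 matches to GGGCGG, whose first bases lay 164, 144, 43 and 38 bases before the start, the last 2 overlapping each other. The only match of Cept1 lay 51 bases before its start, in the part not printed, and Chpt1 had 5 matches, 1 of them in the part printed. Over the full windows, GGGCGG was found in 8 of the 9 genes matched in the RefSeq table and in 32.7% of all 32851 promoters of the same length. The GC content of the window was 65.2% for Etnk2, 66.8% for Cept1 and 75.6% for Chpt1, beside a median of 52.4% over all promoters. It was lowest for Pemt (44.8%), the gene without a match. The share over all promoters was not matched for GC content. CCAAT was found in 5 of 9 (33.8% of all promoters), and it was in the window of Chpt1 but not in those of Etnk2 or Cept1. TCACNCCAC was found only in Pcyt1a among the 9 (1.05% of all promoters). TTCNNNGAA, a STAT-type motif, was found only in Pemt (7.02%). The RefSeq window of Pemt (chr11:60040189-60040438) lies inside the GENCODE position of the gene, so it is not upstream of the GENCODE start. CACGTG (the E-box), TGTTTAC (a forkhead motif) and AGGTCA (a nuclear receptor half-site) were found in 0 of 9, against 6.02%, 3.17% and 14.0%. No motif searched was shared by the windows of Etnk2, Cept1 and Chpt1 other than GGGCGG, which 8 of the 9 held. Matches describe the letters of these windows and do not show that a factor binds there.

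Before the last step of the choline branch, no gene had all 3 lipophagy livers above the controls. Chka (chr19:3851773-3894369, plus strand), the choline kinase whose loss cannot be replaced in the embryo, had 8.22, 11.0 and 10.4 FPKM in the controls and 9.97, 8.25 and 5.74 FPKM in the lipophagy livers. Control liver 1 lay among the lipophagy values and lipophagy liver 3 lay below all others. The log2 change was -0.30 with a standard error of 0.18 and a 95% interval of -0.71 to 0.12 (limma, adjusted p = 0.386). It was -0.10 without lipophagy liver 3 and -0.45 without lipophagy liver 1, so its size moved with single livers. Antisense transcripts are annotated opposite Chka.

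Chkb (chr15:89426360-89429908, minus strand), the second choline kinase, was at a higher level than Chka in every liver. It had 24.6, 23.9 and 27.6 FPKM in the controls and 23.0, 21.2 and 23.1 FPKM in the lipophagy livers. The groups did not overlap, although control liver 2 and lipophagy liver 3 were less than 1 FPKM apart. The log2 change was -0.17 with a 95% interval of -0.36 to 0.025 (limma, unadjusted p = 0.08, adjusted p = 0.304), and after quantile normalization it was -0.29 (unadjusted p = 0.0068, adjusted p = 0.19). It was -0.11 without control liver 3. The annotation places the coding gene Gm44502 on the same strand over Chkb and C730034F03Rik opposite it, so the assignment of reads to Chkb is uncertain. The ratio of Chkb to Chka was 2.99, 2.17 and 2.66 in the controls and 2.31, 2.57 and 4.02 in the lipophagy livers, and it overlapped between the groups (exact permutation p = 0.7).

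Pcyt1a (chr16:32430921-32475070, plus strand) encodes the cytidylyl transferase that makes CDP-choline and is regarded as rate-limiting for phosphatidylcholine synthesis. It had 12.3, 12.8 and 12.4 FPKM in the controls and 12.1, 11.7 and 13.8 FPKM in the lipophagy livers. The lipophagy livers lay on both sides of the controls. The log2 change was 0.0015 with a 95% interval of -0.19 to 0.19, which in fold terms runs from 0.877 to 1.14 (limma, adjusted p = 0.993), and after quantile normalization it was -0.064. Slc51a and an antisense transcript overlap Pcyt1a on the opposite strand.

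Pemt (chr11:59970614-60046489, minus strand), which uses S-adenosylmethionine to methylate phosphatidylethanolamine, had the highest level of the set. Its values were 301, 311 and 292 FPKM in the controls and 427, 332 and 301 FPKM in the lipophagy livers. Lipophagy liver 1 stood far above the rest, lipophagy liver 2 lay above all controls and lipophagy liver 3 lay among them. The mean was 354 ± 65.8 FPKM in lipophagy livers against 301 ± 9.68 FPKM in controls, a log2 change of 0.21 with a standard error of 0.13 and a 95% interval of -0.085 to 0.51 (limma, adjusted p = 0.384). It was 0.07 without lipophagy liver 1, 0.32 without lipophagy liver 3 and 0.026 after quantile normalization.

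The ratio of Pemt to Pcyt1a compares the methylation route with the committed step of the choline branch. It was 24.4, 24.4 and 23.5 in the controls and 35.2, 28.3 and 21.9 in the lipophagy livers. The lipophagy livers spread on both sides of the controls, and the difference of 0.21 on the log2 scale was smaller than the pooled SD of 0.24 (exact permutation p = 0.4). It was 0.047 without lipophagy liver 1 and 0.39 without lipophagy liver 3.

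Lpcat3 (chr6:124663027-124704418, plus strand) remodels phospholipids by adding polyunsaturated chains to lysophosphatidylcholine. It had 43.7, 38.9 and 41.6 FPKM in the controls and 45.2, 42.2 and 45.3 FPKM in the lipophagy livers. Lipophagy liver 2 lay below control liver 1, so the groups overlapped. The log2 change was 0.095 with a 95% interval of -0.087 to 0.28 (limma, adjusted p = 0.519), and it turned to -0.051 after quantile normalization. It was 0.052 without control liver 2. Emg1 overlaps Lpcat3 on the opposite strand.

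**Figure D3:**
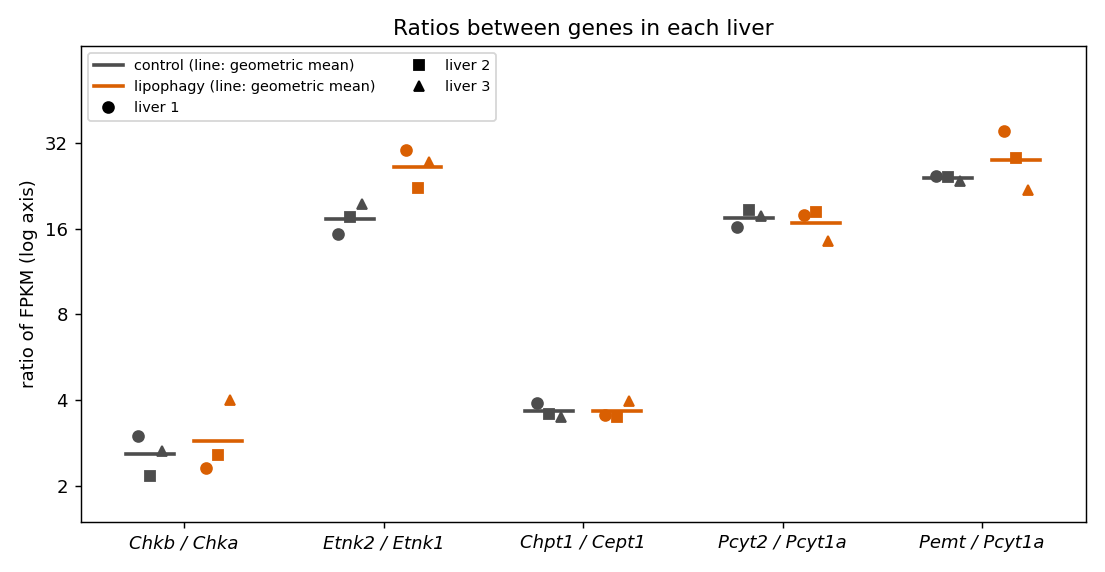
Ratios between pairs of the 10 genes in each liver (y axis, log scale) for the 3 control (grey) and 3 lipophagy (orange) livers, with lines at the geometric means. The ratio of Etnk2 to Etnk1 is higher in all 3 lipophagy livers (22.2 to 30.2) than in the controls (15.3 to 19.5), and the other 4 ratios overlap.

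The genes around the pathway were taken from lists of transporters, side reactions and regulators, which were chosen with earlier results of these data known. Among the 7 tested genes of other precursor synthesis and disposal, the largest log2 change was that of Etnppl, which acts on the product of Etnk2. Etnppl, whose enzyme breaks down phosphoethanolamine, had 40.8, 33.4 and 29.2 FPKM in the controls and 87.8, 41.4 and 68.6 FPKM in the lipophagy livers, with no overlap and a log2 change of 0.86 ± 0.25 (standard error, limma, unadjusted p = 0.0086, adjusted p = 0.162). As with Etnk2, lipophagy liver 2 was the lowest of its group. In the same list Ept1 (now Selenoi), the ethanolamine phosphotransferase, was lower at 5.13 ± 0.314 against 6.28 ± 0.730 FPKM (log2 change -0.24, limma, unadjusted p = 0.0352, adjusted p = 0.233). Slc27a1, a fatty acid transporter, was lower by a log2 change of -0.22 (limma, unadjusted p = 0.0436, adjusted p = 0.248), and after quantile normalization by -0.16 (unadjusted p = 0.0963). Pcyt1b was under the minimum level and was not tested, at 0.157, 0.142 and 0.142 FPKM in the controls and 0.0795, 0.055 and 0.0594 FPKM in the lipophagy livers, and it was named after its values were seen.

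Of the transporters of choline and ethanolamine, 1 of 5 tested passed an unadjusted p under 0.05, a share near the 19.5% of all tested genes. This was Mfsd7c (now Flvcr2), a choline transporter, with 2.01, 1.36 and 2.13 FPKM in the controls and 1.04, 0.872 and 0.928 FPKM in the lipophagy livers. The groups did not overlap at these low levels, and the log2 change was -0.53 (limma, unadjusted p = 0.0018, adjusted p = 0.134). Slc44a5, Slc5a7 and Slc22a2 were listed at 0 in all 6 livers.

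The methyl groups used by PEMT come from S-adenosylmethionine, and genes of methyl donor and choline oxidation mostly had higher means in lipophagy livers. Of 15 tested, 13 had a higher mean, beside 54.5% of all tested genes, 4 of them at an unadjusted p under 0.05 (limma), beside 11.5%, and the list's median log2 change was 0.21, or 0.021 after quantile normalization. Gnmt, which methylates glycine and so consumes S-adenosylmethionine in competition with PEMT, had 1332, 974 and 1127 FPKM in the controls and 2370, 1468 and 1629 FPKM in the lipophagy livers (log2 change 0.65, limma, unadjusted p = 0.0096, adjusted p = 0.165). Ahcy, which removes the S-adenosylhomocysteine that such methylations leave, had 283, 261 and 295 FPKM against 389, 382 and 429 FPKM (log2 change 0.52, limma, adjusted p = 0.103). Neither overlapped between the groups. The others at this threshold were the choline oxidation enzyme Dmgdh (log2 change 0.33) and the homocysteine methyltransferase Bhmt2 (0.24), which after quantile normalization had 0.15 and 0.094 (limma, unadjusted p = 0.125 and 0.271). Bhmt2 had 0.14 without lipophagy liver 1.

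Diacylglycerol is the acceptor of the last step in both branches and is shared with triglyceride synthesis. Of 12 genes of its supply and use, 10 had a higher mean, beside the same 54.5% of all tested genes, and 2 of them passed an unadjusted p under 0.05 (limma), beside 11.5%, with a list median of 0.18, or 0.072 after quantile normalization. Lpin1, which makes diacylglycerol from phosphatidic acid, had 5.43, 9.21 and 5.42 FPKM in the controls and 17.8, 15.8 and 49.2 FPKM in the lipophagy livers (log2 change 1.75, limma, adjusted p = 0.134). Dgat2, which turns diacylglycerol into triglyceride, had 119, 124 and 123 FPKM against 191, 164 and 203 FPKM (log2 change 0.60, limma, adjusted p = 0.0915). The groups did not overlap for either gene, and lipophagy liver 3 was the highest for both.

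Of 10 genes of phosphatidylcholine export and transfer, 4 were higher and 1 lower at an unadjusted p under 0.05 (limma), beside 11.5% and 7.97% of all tested genes. The lower gene was Abcb4, the canalicular transporter that moves phosphatidylcholine into bile. It had 75.7, 86.1 and 80.0 FPKM in the controls and 58.7, 71.0 and 61.5 FPKM in the lipophagy livers (log2 change -0.34, limma, unadjusted p = 0.0082, adjusted p = 0.16). Its groups did not overlap, and its change was -0.48 after quantile normalization. Tmem41b, a lipid scramblase, had a log2 change of 0.34, the cargo receptor Surf4 0.25 and the lipoprotein assembly protein Mttp 0.20. The fourth was the phosphatidylcholine carrier Stard7 (0.19), named after its values were seen. After quantile normalization Tmem41b alone was higher at that threshold, and Surf4 (0.11), Mttp (0.059) and Stard7 (0.065) no longer passed it, while Abcb4, Pltp (-0.27) and Vmp1 (-0.33) were lower. Without control liver 1 the log2 change of Tmem41b was 0.22 and that of Mttp 0.13.

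The remaining lists covered remodelling, breakdown and regulation of phospholipids, and their counts stand beside the 19.5% of all tested genes with an unadjusted p under 0.05 (limma). Among the other lysophospholipid acyltransferases, 5 of 5 tested had a lower mean, beside 5234 of all 11493 tested genes. Lpcat4 alone passed an unadjusted p under 0.05 (0.716 ± 0.177 against 0.412 ± 0.121 FPKM, limma, adjusted p = 0.213). After quantile normalization Lpcat4 did not pass (limma, unadjusted p = 0.116) and Lpgat1 did (log2 change -0.26, unadjusted p = 0.0375). Of 22 tested genes of phospholipid and glycerophosphodiester hydrolysis, 11 were higher and 11 lower on average, and the lower ones with an unadjusted p under 0.05 were the phospholipase D family members Pld1 (log2 change -0.27), Pld2 (-0.27) and Pld4 (-0.26) and the lipid hydrolase Abhd4 (-0.23). The 1 higher gene at that threshold was Lcat (0.20), which esterifies cholesterol with a chain of phosphatidylcholine and was named after its values were seen. After quantile normalization Lcat had a log2 change of 0.0071 (limma, unadjusted p = 0.91), Pld2 had -0.21 (unadjusted p = 0.0568), and 0 genes of this list were higher at that threshold, while Pld3 passed it (-0.25, unadjusted p = 0.0148). Of 10 regulators, only Insig1, which retains the sterol sensor SCAP in the endoplasmic reticulum, passed that threshold (log2 change 0.51, limma, unadjusted p = 0.0217, adjusted p = 0.204), and its groups overlapped. After quantile normalization its change was 0.38 (unadjusted p = 0.0541), and Insig2 passed in the lower direction (-0.43, unadjusted p = 0.0407). Genes named only for their value after quantile normalization were named after their values were seen. No gene of any of these lists passed an adjusted p under 0.05. Of the 22 genes of these lists with an unadjusted p under 0.05 (limma), 10 kept it whichever liver was left out, namely Mfsd7c, Etnppl, Pld1, Abhd4, Abcb4, Ahcy, Gnmt, Dmgdh, Lpin1 and Dgat2.

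**Figure D4:**
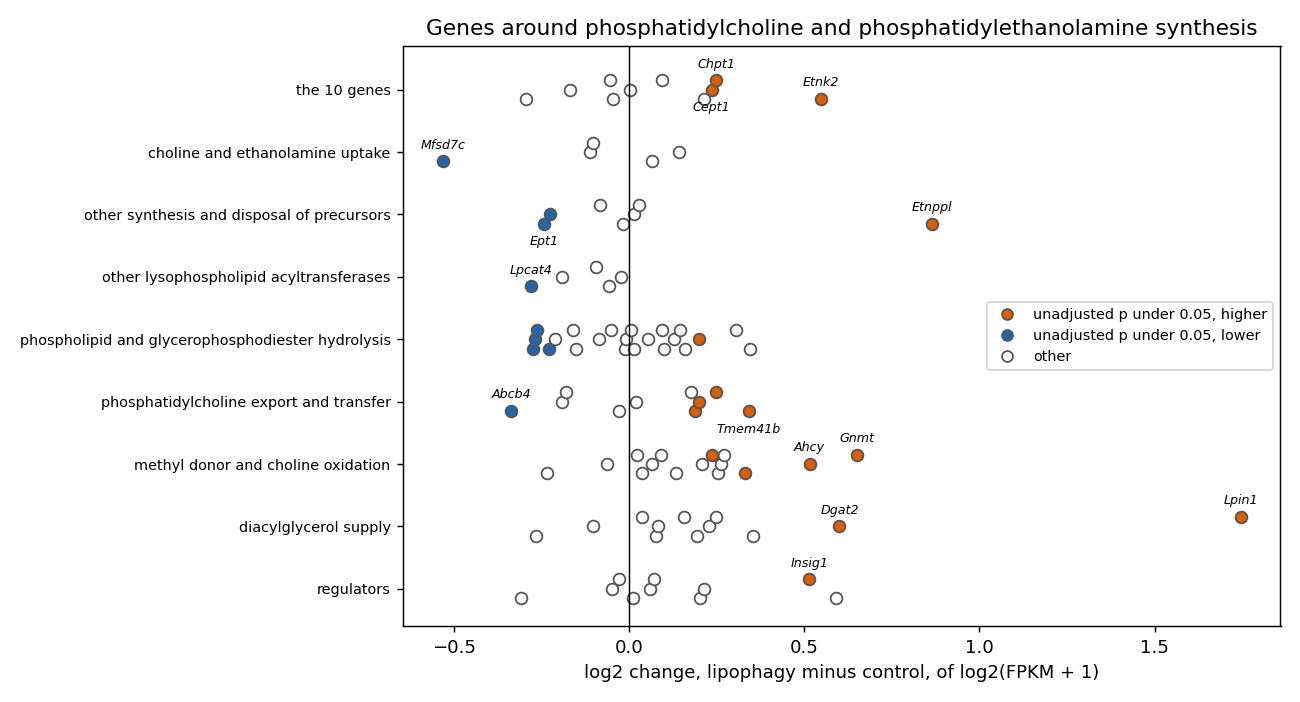
Log2 change between lipophagy and control livers (x axis, difference of group means of log2(FPKM + 1)) for the 10 genes and the tested genes of 8 lists around them (rows, with small vertical offsets only to separate points). Filled points had an unadjusted p under 0.05 (limma), orange higher and blue lower, and Lpin1 at 1.75 and Etnppl at 0.86 are farthest to the right, with Mfsd7c at -0.53 farthest to the left.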

How the data were processed

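Liver RNA libraries (TruSeq stranded mRNA, 100 bp paired-end reads) were made by the authors, who per the labels used TopHat2 2.0.13, Bowtie2 2.2.3, SAMtools 0.1.19, Cufflinks 2.2.1 and mm10, and deposited 1 table of FPKM per gene symbol. The sequencer is given differently in the labels and the methods. Differences were tested on log2(FPKM + 1) with limma 3.58.1 (trend, R 4.3.3) over the 11493 genes that averaged 0.5 FPKM or more, with Benjamini-Hochberg adjustment. A fold change on this scale understates low genes. Ratios were tested by two-sided exact permutation. The spacing of low FPKM values gave estimated depths of 22800000 to 33900000 fragments, depending on the transcript lengths assumed, and, with the longest annotated transcript of each gene, about 639 to 12915 fragments behind the values of the 10 genes. Libraries correlated at Spearman 0.979 to 0.982, and none were identical.

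The genes and lists were chosen with earlier results of these data known. Named were all 10 genes, and from each list up to 4 genes with an unadjusted p under 0.05, by size of change. Alternatives were other pseudocounts, filters, scalings, variance models, a replicate block and leaving out each liver. Positions are from GENCODE (GRCm38), the build of mm10. Promoters of 9 of the 10 genes matched in RefSeq. Pcyt2 had no entry.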

Additional observations from a re-analysis of the deposited data

How the results depend on the processing

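Under 16 alternatives to the fit, 152 of 160 values of the 10 genes kept their direction, and Etnk2, Cept1, Chpt1, Pemt, Chka and Chkb kept it in all. The genes called over all those tested went from 3 to 1 with no filter on low values, to 39 with a quality weight for each liver and to 43 with the replicate block, and ranged from 2 to 11 when each liver was left out. None of the 10 genes was called in any of these, with a lowest adjusted p of 0.0533 without lipophagy liver 2. With the quality weight, 5 of the 10 had an unadjusted p under 0.05 (limma), Chka and Chkb being added, beside 23.0% of all tested genes, and 3 with the replicate block, beside 17.8%, against 3 and 19.5% in the fit reported. The same-numbered livers correlated in their deviations at 0.25, 0.23 and -0.057, and differently numbered livers at -0.39 to 0.25. These values do not settle whether the numbers pair the livers, and the fit reported took the livers as unpaired.

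Quantile normalization turned the median of the set to -0.050, Pcyt1a to -0.064 and Lpcat3 to -0.051. It left 3 of the 10 with an unadjusted p under 0.05 (limma), now Etnk2 higher, beside 6.48% of all tested genes, and Chkb and Pcyt2 lower, beside 7.82%, and the share of higher genes among all those under 0.05 went from 59.2% to 45.3%. The quality weight turned Pcyt1a to -0.041. Leaving out each liver gave -0.062 to 0.045 for Pcyt1a, -0.11 to 0.0058 for Etnk1 and -0.12 to 0.0034 for Pcyt2, gave 4 to 7 of the 10 without overlap, beside 32.8% to 44.4% of all tested genes (7 without control liver 1, beside 37.3%), where 5 livers overlap less readily than 6, and gave log2 differences of -0.32 to 0.085 for the ratio of Chka to Chkb, -0.055 to 0.056 for Chpt1 to Cept1, -0.051 to 0.12 for Pcyt1a to Pcyt2 and 0.047 to 0.39 for Pemt to Pcyt1a. The cause was not tested. With 3 livers a group, no ratio can pass an exact p of 0.05, so their tests say nothing of stability.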

Other observations

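Over the 6 livers, the genes whose FPKM + 1 on the log2 scale was most like that of Etnk2 were Ik, a splicing factor (Pearson r = 0.995), Lman1, a cargo receptor of the early secretory pathway (r = 0.994), and Ap4b1, a subunit of a vesicle adaptor (r = 0.993). Lman1 had 42.2, 45.7 and 43.9 FPKM in the controls and 66.8, 52.0 and 65.1 FPKM in the lipophagy livers, so that lipophagy liver 2 was the lowest of its group, as for Etnk2. Of 11492 genes compared, 111 had r over 0.95. Within the set, Etnk2 was most like Chpt1 (r = 0.911) and Cept1 (r = 0.905), values that include the difference between the groups. With each group's mean removed they were 0.664 and 0.566, and Pcyt1a had the highest value, 0.729. These are descriptions over 6 livers that share group, depth and processing.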
